A study of Rattus norvegicus with 16 samples.

Results

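Cytochrome c oxidase isoform genes were followed in soleus muscle, a slow-twitch postural muscle, of rats from a pair of lines bred for treadmill running. The 8 genes chosen were Cox7a1, Cox7a2, Cox6a1, Cox6a2, Cox8a, Cox8b, Cox4i1 and Cox4i2, out of 14217 genes that had a probe set with 1 symbol on the array. Members were the probe sets with 1 of these symbols alone, and 7 of the 8 genes had exactly 1 such probe set. Cox7a2 had none, because the probe set that lists it also lists Cox7a2l2. That shared probe set is described beside the others and is not counted among the 7. Cox7a1 was selected on its trained minus sedentary difference in these same arrays, and the other genes were added by their isoform names, so the training values of Cox7a1 are given as a description, with no test.

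Each of 16 arrays held soleus RNA of 1 female rat from generation 16 of selection, aged near 7 months. HCR rats descended from parents picked each generation as the best runners, and LCR rats from the poorest runners. In each line 4 rats had run uphill treadmill intervals on 5 days a week for 8 weeks, and 4 age-matched rats had stayed sedentary. Trained rats were killed 48 hours after their last session. The 4 groups of n = 4 rats were thus trained and sedentary HCR and trained and sedentary LCR, and both lines began from the N:NIH stock. Values are log2 signals per probe set after the authors' normalization, so a difference of 1 unit is a doubling of signal relative to the bulk of the array. Such signals come from whole muscle, in which more cells of a type and more RNA per cell cannot be told apart.

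Cytochrome c oxidase, complex IV of the mitochondrial respiratory chain, passes electrons from cytochrome c to oxygen and pumps protons across the inner membrane. Its catalytic core is encoded by mitochondrial DNA, and nuclear genes encode the smaller subunits around it, several of which exist as tissue isoforms. Cox7a1, Cox6a2 and Cox8b encode the forms typical of heart and skeletal muscle, and Cox7a2, Cox6a1 and Cox8a their ubiquitous counterparts. The fourth pair differs in kind. Cox4i1 is the ubiquitous form of subunit 4, and Cox4i2 is a form known chiefly from lung and for its response to oxygen, not a muscle form.

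Start regions of 5 of the genes are shown to set the Cox7a1 gene beside both other muscle forms and beside a pair of ubiquitous forms. RefSeq windows of 300 bases, from 250 before to 50 after a transcript start on assembly GRCr8, were matched for 6 of the 8 genes. Cox6a1 and Cox4i2 were unmatched. Sequences run 5′ to 3′ on the gene's strand. Capitals mark E-boxes (CANNTG, sites of basic helix-loop-helix factors), the motif CCGGAAG or its reverse complement CTTCCGG (the core read by ETS factors, among them nuclear respiratory factor GABP), and the MEF2 motif, all searched on both strands.
Cox7a1, chr1:94568966-94569265, plus strand: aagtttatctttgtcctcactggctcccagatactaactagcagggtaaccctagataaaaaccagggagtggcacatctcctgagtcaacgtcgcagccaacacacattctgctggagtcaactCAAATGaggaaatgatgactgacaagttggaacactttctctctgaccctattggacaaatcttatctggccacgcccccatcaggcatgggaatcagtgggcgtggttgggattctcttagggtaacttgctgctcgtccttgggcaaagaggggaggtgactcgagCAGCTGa
Cox6a2, chr1:192219667-192219966, minus strand: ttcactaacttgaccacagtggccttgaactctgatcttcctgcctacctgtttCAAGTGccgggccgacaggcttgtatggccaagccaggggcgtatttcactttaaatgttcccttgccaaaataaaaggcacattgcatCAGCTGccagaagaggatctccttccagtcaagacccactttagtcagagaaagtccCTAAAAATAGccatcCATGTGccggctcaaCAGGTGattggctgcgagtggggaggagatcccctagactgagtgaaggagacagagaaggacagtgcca
Cox8b, chr1:205408224-205408523, minus strand: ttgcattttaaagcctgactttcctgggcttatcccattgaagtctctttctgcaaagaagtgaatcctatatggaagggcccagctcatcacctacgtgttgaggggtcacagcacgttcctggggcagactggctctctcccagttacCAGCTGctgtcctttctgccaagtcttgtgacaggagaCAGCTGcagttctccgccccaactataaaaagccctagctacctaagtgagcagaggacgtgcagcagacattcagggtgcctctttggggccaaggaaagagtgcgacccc
Cox8a, chr1:213833574-213833873, minus strand: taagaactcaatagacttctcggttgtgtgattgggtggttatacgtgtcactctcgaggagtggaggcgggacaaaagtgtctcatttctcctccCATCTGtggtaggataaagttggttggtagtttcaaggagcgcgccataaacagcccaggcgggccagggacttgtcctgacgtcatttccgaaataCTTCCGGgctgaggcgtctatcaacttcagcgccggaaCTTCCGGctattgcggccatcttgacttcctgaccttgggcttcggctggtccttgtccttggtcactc
Cox4i1, chr19:65630133-65630432, plus strand: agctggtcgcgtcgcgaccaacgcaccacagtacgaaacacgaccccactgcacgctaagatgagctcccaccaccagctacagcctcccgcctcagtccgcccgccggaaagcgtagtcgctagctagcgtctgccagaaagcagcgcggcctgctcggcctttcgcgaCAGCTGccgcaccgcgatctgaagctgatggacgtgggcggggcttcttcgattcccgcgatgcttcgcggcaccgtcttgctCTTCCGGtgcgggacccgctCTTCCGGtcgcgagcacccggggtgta

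Of the motifs searched, CCGGAAG alone split the 6 windows into muscle and ubiquitous forms. CCGGAAG had 0 matches in the windows of Cox7a1, Cox6a2 and Cox8b. It had 2 matches in that of Cox8a, 2 in that of Cox4i1 and 1 in that of Cox7a2, against a share of 8.75% of 33465 RefSeq windows of the same length with at least 1. The E-box form CAGCTG, which is also counted as a CANNTG match, had 1 match in the window of Cox7a1, 1 in that of Cox6a2, 2 in that of Cox8b and 1 in that of Cox4i1. It had 0 in those of Cox8a and Cox7a2, and 15.1% of all windows held it. CANNTG in general was in all 6 windows and in 72.1% of all windows. A MEF2 motif was found in the window of Cox6a2 alone among the 6, and in 1.87% of all windows. TATAAA was in the window of Cox8b alone among the 6 (14.2% of all windows), and AAGGTCA in that of Cox8a alone (4.61%). These matches describe letters in a window and were not tested as sites. The windows of Cox7a1, Cox6a2 and Cox7a2 lie inside the spans that RefSeq gives these genes (chr1:94549663-94572330 for Cox7a1), so transcripts of these 3 genes that start upstream are not covered.

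The arrays carried the markers of slow muscle. All 8 slow fibre markers were measured, and their summed signal lay between 16.88 and 17.12 on the log2 scale on 15 of the arrays. HCR trained 3 stood apart, with a slow fibre sum of 14.67. Its fast fibre sum over 11 markers was 17.41, against 15.77 to 16.63 on the other arrays. Of the single fast fibre markers, Myh4, Actn3, Pvalb and Casq1 were higher in every HCR trained than in every HCR sedentary rat. The others overlapped, and 4.94% of all probe sets were higher in this way. Myh4 ran from 4.76 to 8.03 in HCR sedentary and from 8.43 to 13.57 in HCR trained rats. In LCR it ran from 4.83 to 5.13 in sedentary and from 4.84 to 5.80 in trained rats. Striated muscle markers, 6 of 6, summed to 16.49 to 16.77 on all arrays. On HCR sedentary 2 the summed signal of 6 fibroblast and matrix genes was 15.56, and the list reached 15.10 in LCR trained rats, against 13.20 to 13.91 in LCR sedentary and 13.40 to 13.52 in HCR trained rats. Pairs of arrays correlated between 0.941 and 0.996 over 31042 probe sets, and none were identical.

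Cox7a1, the muscle form of subunit 7a, which lies at the surface where complex IV copies or other complexes meet, was about 4-fold higher after training in HCR rats and about 3-fold higher in LCR rats. In HCR sedentary rats 1 to 4 its log2 signal was 6.67, 6.69, 6.52 and 7.01. In HCR trained rats it was 8.68, 8.28, 8.96 and 8.97. Every trained HCR rat was thus above every sedentary HCR rat, and the gap between the groups was wider than the range within either. In LCR sedentary rats 1 to 4 the signal was 6.81, 7.12, 6.74 and 5.94, and in LCR trained rats it was 8.63, 8.19, 8.19 and 8.29. LCR sedentary 4 was the lowest of all 16 rats, and the LCR groups did not overlap either. That array was also the lowest of its group at every other member probe set and at the shared probe set. Without it the LCR training difference of Cox7a1 was 1.44 log2 units, against 1.67 with all arrays.

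The Cox7a1 means were 6.72 ± 0.21 (SD, n = 4) in HCR sedentary, 8.72 ± 0.33 in HCR trained, 6.65 ± 0.50 in LCR sedentary and 8.33 ± 0.20 in LCR trained rats. The training difference was 2.00 log2 units (SE 0.22), or 4.00-fold, in HCR. It was 1.67 (SE 0.22), or 3.19-fold, in LCR. By size of rise it ranked 6 among the 31042 probe sets in HCR and 8 in LCR. Non-overlap in both lines together, with all 8 trained rats above all 8 sedentary rats, was seen at 18 probe sets in all, 0.0580% of those tested. Within a line all trained rats were above all sedentary rats at 4.94% of probe sets in HCR and 2.90% in LCR. Since these values chose the gene, nothing is read from them about how unusual it is.

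**Figure D1:**
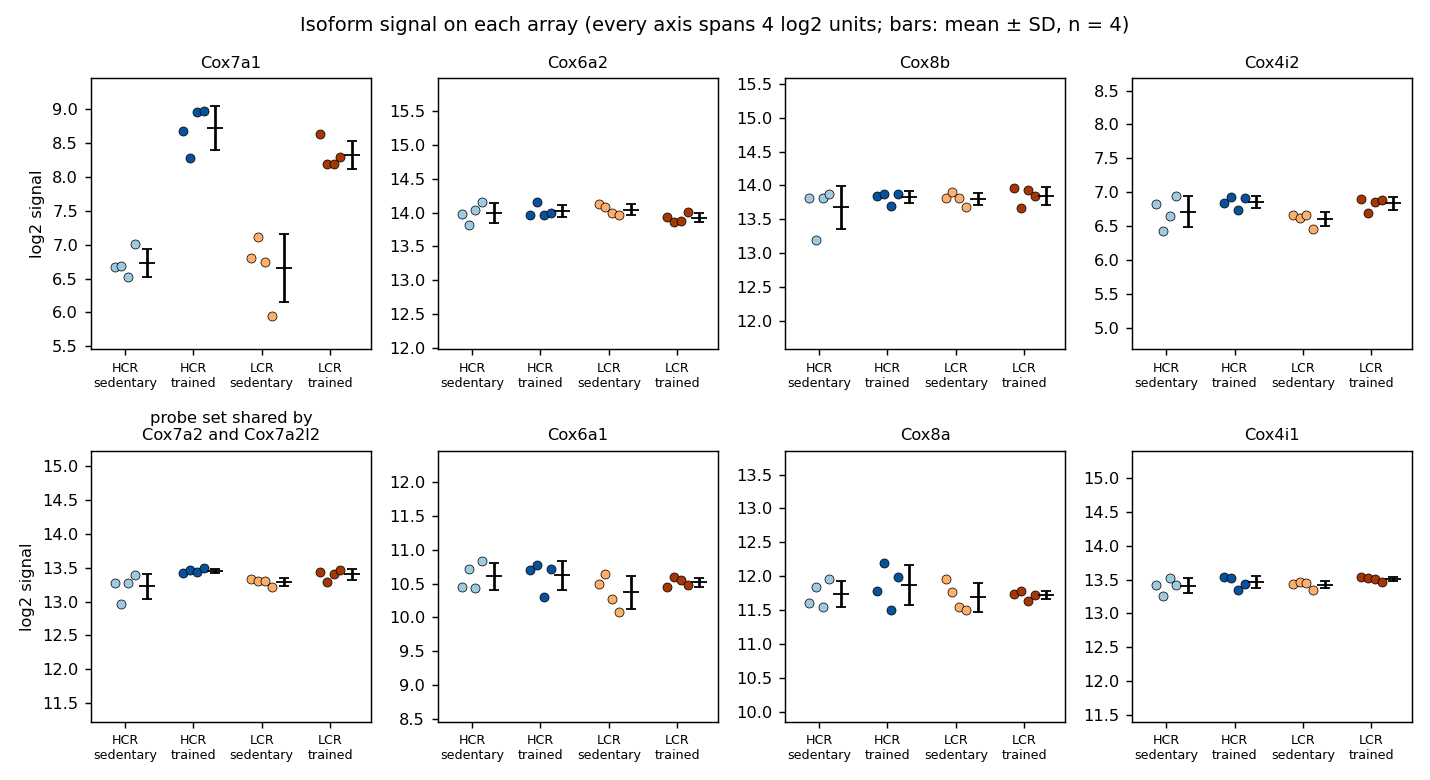
Log2 signal of the 7 isoform probe sets, and of the probe set shared by Cox7a2 and Cox7a2l2, in each rat; points are rats, bars the mean ± SD of 4 rats, and every vertical axis spans 4 log2 units. Cox7a1 sits between 5.94 and 7.12 in the sedentary rats and between 8.19 and 8.97 in the trained rats, while the other panels are nearly flat at this scale.

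Line, which did not enter the choice of Cox7a1, could be tested. Among sedentary rats Cox7a1 differed between HCR and LCR by 0.07 log2 units (95% interval -0.39 to 0.53, adjusted p = 0.943 in limma's moderated test). Among trained rats HCR exceeded LCR by 0.40 (interval -0.07 to 0.86, adjusted p = 0.326), and averaged over both states by 0.23 (interval -0.09 to 0.56, adjusted p = 0.600). The training response was larger in HCR by 0.32 (interval -0.33 to 0.98, adjusted p = 0.602). None of these passed, and the last interval allows the fold response in HCR to be 0.796 to 1.97 times that in LCR. In order of level the groups ran HCR trained, LCR trained, HCR sedentary and LCR sedentary. The neighbours in each training state did not differ beyond their spread, and the step between the states is the one that chose the gene.

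Measures that set arrays apart are given here beside Cox7a1. On HCR trained 3, the array with few slow fibre transcripts, Cox7a1 read 8.96, within the 8.28 to 8.97 of the other HCR trained rats. The part of fast fibre transcripts in the Cox7a1 values of HCR rats was not tested. Without HCR trained 3 and HCR sedentary 2 the training difference in HCR was 1.91. Actin control probes at the 3′ end of the transcript read brighter than those in its middle by an amount, here the actin index, that was 1.18 ± 0.54 (SD, n = 4) in HCR sedentary and 1.90 ± 0.35 in HCR trained rats. In LCR it ran the other way, from 1.65 ± 0.32 in sedentary to 1.27 ± 0.14 in trained rats. With that index in the model the Cox7a1 difference was 1.96 in HCR and 1.69 in LCR.

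Cox7a1 and Cox8b are also transcribed in brown fat, so fat markers were read too. The 6 brown adipocyte markers summed to 8.82 to 9.40 in HCR sedentary, 8.88 to 9.98 in HCR trained, 9.13 to 9.31 in LCR sedentary and 9.33 to 9.52 in LCR trained rats. The LCR groups thus stood apart slightly on this list, and its part in the Cox7a1 values was not tested. Its defining gene Ucp1, the uncoupling protein of brown fat, lay between 5.22 and 5.87 in all rats. The 40th percentile of probe set means, taken as the edge of dim signals, was 5.61, and 3 of the 6 markers in each HCR group and 4 in each LCR group stayed under it on every array. The markers above it in LCR were Cidea and Ppargc1a, and each overlapped between the LCR groups. Cidea ran from 7.68 to 8.29 in LCR sedentary and from 7.71 to 8.46 in LCR trained rats. Ppargc1a ran from 7.55 to 8.08 and from 7.97 to 8.33. The 5 measured general adipocyte markers overlapped between training states, at 10.49 to 12.64 in HCR trained and 10.82 to 11.42 in HCR sedentary rats. In LCR they were at 11.12 to 11.38 in trained and 10.97 to 11.49 in sedentary rats.

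**Figure D2:**
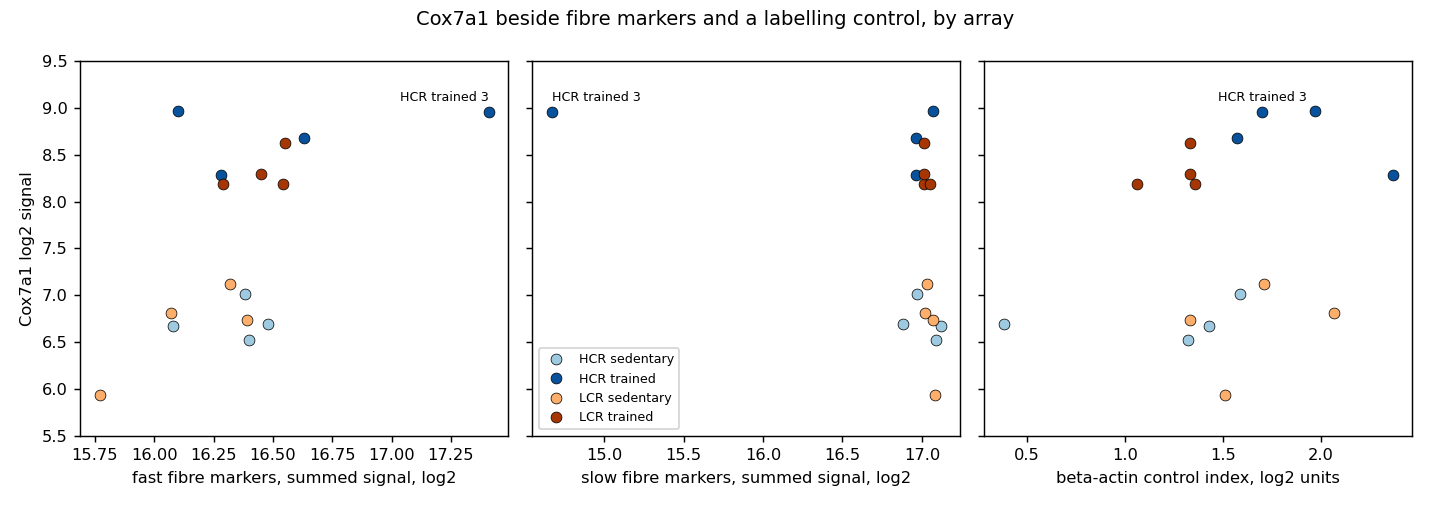
Cox7a1 log2 signal of each rat (vertical axis) against the summed log2 signal of fast fibre markers (left), of slow fibre markers (middle) and the actin index in log2 units (right); colours are the 4 groups. HCR trained 3 is far from the other rats in both fibre panels, and its Cox7a1 value of 8.96 is among those of the other HCR trained rats.

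The ubiquitous counterpart of Cox7a1 could be read only through the probe set it shares with Cox7a2l2. Its log2 signal in HCR sedentary rats 1 to 4 was 13.27, 12.96, 13.27 and 13.39, and in HCR trained rats 13.42, 13.47, 13.43 and 13.49. All HCR trained values were above the sedentary ones, as at 4.94% of all probe sets, by a margin far smaller than for Cox7a1. In LCR rats 1 to 4 the values were 13.34, 13.31, 13.30 and 13.21 in the sedentary and 13.44, 13.29, 13.41 and 13.47 in the trained group, which overlapped. The difference was 0.23 (SE 0.08, adjusted p = 0.159) in HCR and 0.11 (SE 0.08, adjusted p = 0.651) in LCR, and neither passed in limma's moderated test. Signals of this probe set came within 1.07 of the highest value on any array, 14.56, where array signals can flatten.

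Of the other 6 members none passed for training in either line. Cox7a1, which was selected on this contrast, is left out of this count. Of all probe sets 0.187% passed in HCR, 0.00322% in LCR and 0.00644% averaged over both lines. Among the other 6, 0 passed in limma's moderated test in HCR with 0 at an unadjusted p under 0.05, and 0 in LCR with 1 unadjusted, Cox4i2. Their median difference was 0.09 in HCR and 0.06 in LCR, beside medians of 0.004 and -0.024 over all probe sets. The highest upper bound of their 95% intervals was 1.34-fold in HCR and 1.35-fold in LCR. Signals of Cox6a2, Cox8b and Cox4i1 reached within 0.41, 0.60 and 1.02 log2 units of the highest value on any array, so their probe sets could hardly register a rise as large as that of Cox7a1, and for them these bounds do not set a limit on the transcript. With the actin index in the model all 6 differences in HCR were negative, at -0.14 to -0.02.

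Cox6a2, the muscle form of subunit 6a, a small subunit tied to allosteric control by nucleotides, was level across all rats at 13.81 to 14.15. Its means were 13.99 ± 0.14 (SD, n = 4) in HCR sedentary, 14.02 ± 0.09 in HCR trained, 14.04 ± 0.08 in LCR sedentary and 13.92 ± 0.07 in LCR trained rats. The training difference was 0.03 (interval -0.13 to 0.18, adjusted p = 0.893 in limma's test) in HCR and -0.12 (interval -0.28 to 0.04, adjusted p = 0.604) in LCR. Its highest value lay 0.41 below the array maximum, which leaves little room to register a rise.

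Cox6a1, the ubiquitous form of the same subunit, ranged from 10.08 to 10.84. Its means were 10.61 ± 0.20 (SD, n = 4) in HCR sedentary, 10.62 ± 0.22 in HCR trained, 10.37 ± 0.25 in LCR sedentary and 10.52 ± 0.07 in LCR trained rats. Training differences were 0.01 (interval -0.27 to 0.29, adjusted p = 0.973) in HCR and 0.15 (interval -0.13 to 0.43, adjusted p = 0.718) in LCR by limma's test. This gene had the largest line difference of the 6 in sedentary rats, 0.24 higher in HCR (interval -0.04 to 0.52, adjusted p = 0.633), and it did not pass.

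Cox8b, the muscle form of subunit 8, read between 13.66 and 13.96 on all arrays but HCR sedentary 2, where it was 13.20. Group means were 13.68 ± 0.32 (SD, n = 4) in HCR sedentary, 13.82 ± 0.09 in HCR trained, 13.80 ± 0.09 in LCR sedentary and 13.85 ± 0.13 in LCR trained rats. The training difference in HCR was 0.14 (interval -0.12 to 0.41, adjusted p = 0.578 by limma), and without HCR sedentary 2 it turned to -0.01. In LCR it was 0.05 (interval -0.22 to 0.31, adjusted p = 0.921). Like Cox6a2 it was close to the array maximum, 0.60 below at its highest.

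Cox8a, the ubiquitous form of subunit 8, ranged from 11.50 to 12.20 with no order by group. Its means were 11.74 ± 0.20 (SD, n = 4) in HCR sedentary, 11.87 ± 0.30 in HCR trained, 11.69 ± 0.21 in LCR sedentary and 11.72 ± 0.06 in LCR trained rats. Differences with training were 0.13 (interval -0.17 to 0.43, adjusted p = 0.679) in HCR and 0.03 (interval -0.27 to 0.33, adjusted p = 0.961) in LCR by limma's test.

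Cox4i2, the oxygen-responsive form of subunit 4, ranged from 6.42 to 6.94 over all rats, and its training difference did not pass in either line. Its signal in LCR sedentary rats 1 to 4 was 6.67, 6.62, 6.67 and 6.46, and in LCR trained rats 6.90, 6.70, 6.85 and 6.89. The LCR groups did not overlap, with trained above sedentary as at 2.90% of all probe sets. In HCR the groups overlapped, at 6.83, 6.42, 6.65 and 6.94 in sedentary rats 1 to 4 and 6.84, 6.93, 6.73 and 6.92 in trained rats. The difference was 0.23 (interval 0.02 to 0.44, adjusted p = 0.479 by limma) in LCR, 0.15 (interval -0.06 to 0.36, adjusted p = 0.458) in HCR and 0.19 over both lines (interval 0.04 to 0.34, adjusted p = 0.401). With the actin index in the model the HCR difference was -0.07. Cox4i2 is known from vessel-rich tissue, and the 8 smooth muscle and pericyte markers summed to 11.67 to 12.02 in LCR trained against 11.49 to 11.81 in LCR sedentary rats. In HCR they summed to 11.28 to 12.10 in trained and 11.65 to 11.84 in sedentary rats. The 5 measured endothelial markers did not overlap in LCR, at 10.94 to 11.08 in trained and 10.75 to 10.88 in sedentary rats, and ran from 10.75 to 11.20 and from 10.82 to 10.92 in HCR. Such non-overlap in LCR was not limited to vessel lists. The macrophage and leukocyte markers summed to 12.26 to 12.78 in LCR trained and 11.51 to 12.21 in LCR sedentary rats, and overlapped in HCR. The brown adipocyte list did not overlap in LCR either. The part of these cells in the Cox4i2 values was not tested.

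Cox4i1, the ubiquitous form of subunit 4 and a common marker protein of mitochondria, had the narrowest range of the 7 members, 13.26 to 13.54. Its means were 13.41 ± 0.11 (SD, n = 4) in HCR sedentary, 13.46 ± 0.09 in HCR trained, 13.43 ± 0.05 in LCR sedentary and 13.51 ± 0.03 in LCR trained rats. Training differences were 0.06 (interval -0.08 to 0.19, adjusted p = 0.688) in HCR and 0.08 (interval -0.05 to 0.21, adjusted p = 0.696) in LCR by limma's test.

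**Figure D3:**
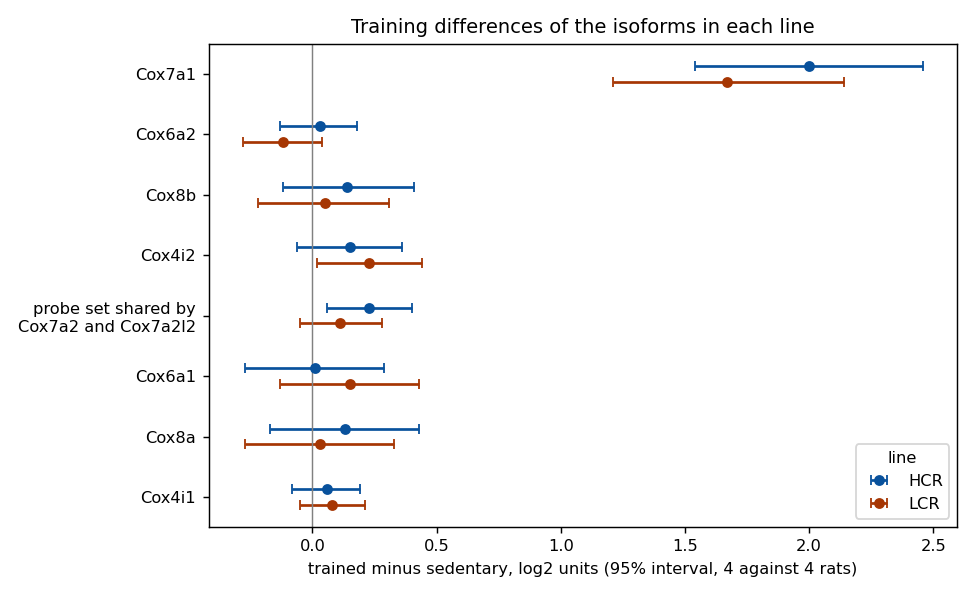
Trained minus sedentary difference of each isoform probe set in log2 units (horizontal axis), with its 95% interval from the fitted model, in HCR (blue) and LCR (brown), 4 against 4 rats. Cox7a1 lies at 2.00 and 1.67, and the other points lie between -0.12 and 0.23; the Cox7a1 points chose the gene and are shown as a description.

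Between the lines none of the 7 members passed in limma's moderated test. The count was 0 of 7 in sedentary rats, 0 of 7 in trained rats and 0 of 7 over both, with 0 at an unadjusted p under 0.05 in each. Over all 31042 probe sets 2598, 6109 and 3215 had an unadjusted p under 0.05, in the same order. Of all probe sets 0.00966%, 0.374% and 0.0870% passed in these comparisons. No member separated the lines without overlap, which 4.87% of probe sets did in sedentary and 13.6% in trained rats. For the difference between the training responses of the lines 0 of 7 passed and 0 had an unadjusted p under 0.05, while 0% of all probe sets passed and 5673 of 31042 had an unadjusted p under 0.05.

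Muscle and ubiquitous forms were set against each other within each array, which removes anything that shifts both probe sets alike. Only changes of this difference are read, not its level, because probe sets are not comparable in level, and no test was made over members. For Cox7a1 minus the probe set shared by Cox7a2 and Cox7a2l2, centred on its mean over all arrays, the groups stood at -0.76 ± 0.21 (SD, n = 4) in HCR sedentary, 1.01 ± 0.33 in HCR trained, -0.90 ± 0.45 in LCR sedentary and 0.66 ± 0.18 in LCR trained rats. The shift with training was 1.77 in HCR and 1.56 in LCR, and it rests on the values that chose Cox7a1.

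The remaining pairs moved little. Each holds a probe set whose signals came near the array maximum, within 0.41 for Cox6a2, 0.60 for Cox8b and 1.02 for Cox4i1. Signals can flatten there, so Cox6a2 minus Cox6a1 and Cox8b minus Cox8a could hardly register a rise as large as that of the Cox7a1 pair. In Cox4i2 minus Cox4i1 the bright probe set is the one subtracted. Cox4i2 itself lay 7.62 below the array maximum at its highest, so it had room to register a rise. Cox6a2 minus Cox6a1 shifted by 0.01 with training in HCR and by -0.27 in LCR, where the groups stood at 0.21 ± 0.19 (SD, n = 4) in sedentary and -0.06 ± 0.13 in trained rats and overlapped. Cox8b minus Cox8a shifted by 0.02 in HCR and by 0.02 in LCR, with SDs of 0.18 to 0.42. Without HCR sedentary 2 and HCR trained 3 the HCR shifts were -0.17 for Cox6a2 minus Cox6a1 and -0.25 for Cox8b minus Cox8a. Cox4i2 minus Cox4i1 shifted by 0.09 in HCR and by 0.15 in LCR.

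**Figure D4:**
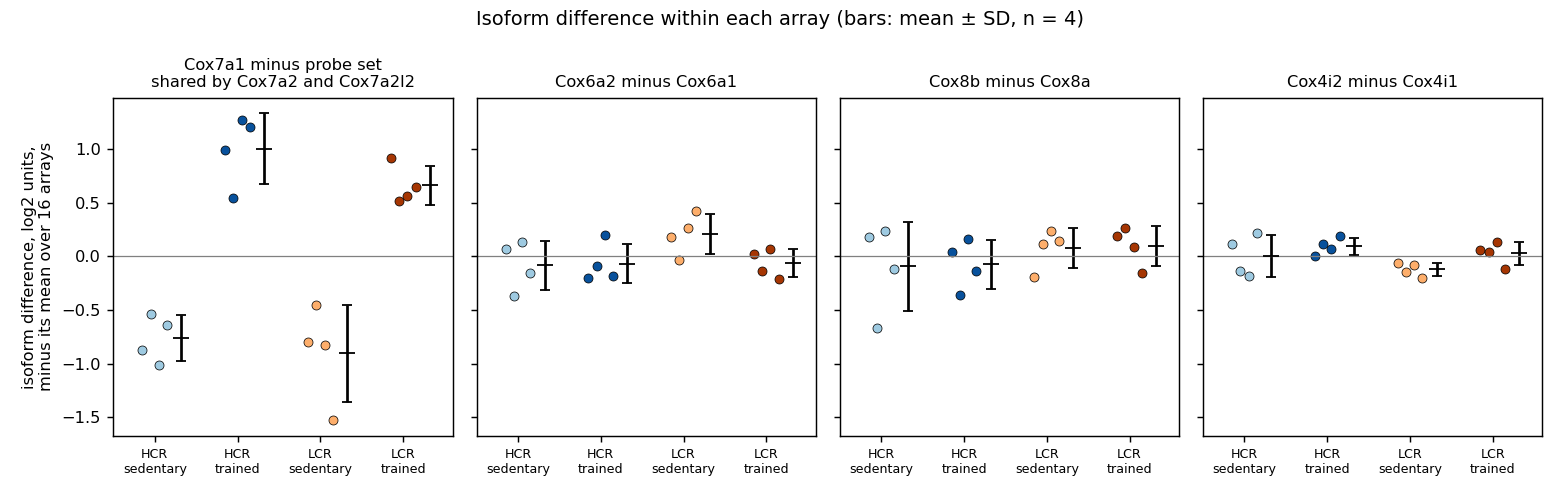
Difference between the members of each isoform pair within each array, in log2 units and centred on its mean over the 16 arrays (vertical axis), by group; points are rats and bars the mean ± SD of 4 rats. The leftmost pair runs from -1.53 to -0.45 in sedentary and from 0.52 to 1.27 in trained rats, and in the other 3 panels trained and sedentary rats overlap in each line.

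The rest of complex IV gave no call. Of 14 other subunit genes listed, 10 had a probe set of their own, and 0 passed in limma's test in HCR (3 higher at an unadjusted p under 0.05) and 0 in LCR (0 unadjusted). Over all probe sets 5498 of 31042 in HCR and 3031 in LCR had an unadjusted p under 0.05. Their median training difference was 0.10 in HCR and 0.04 in LCR, with extremes of -0.25 for Cox5a and 0.24 for Cox6b1 in HCR. Cox7c, a small structural subunit, had the smallest p of them over both lines, at 0.14 (SE 0.05, adjusted p = 0.398). Without HCR sedentary 2 the HCR median was 0.05, without both HCR sedentary 2 and HCR trained 3 it was 0.02, and without LCR sedentary 4 the LCR median was 0.00. Probe sets with the symbols COX1 and COX2, which the platform annotation does not describe further, were added after their values were seen. They differed by 0.12 and 0.07 in HCR (adjusted p = 0.361 and 0.481) and by 0.05 and 0.03 in LCR (adjusted p = 0.807 and 0.869) at signals of 13.92 to 14.30.

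Assembly factors of complex IV, which insert copper and haem or stabilise intermediates, pointed in different directions in the lines without any call. Of 30 listed, 27 were measured. In HCR 25 of the 27 had a positive training difference, at a median of 0.20, and 0 passed (10 higher and 0 lower at an unadjusted p under 0.05, beside 5498 of 31042 over all probe sets in either direction). In LCR 22 of the 27 were negative, at a median of -0.08, and 0 passed (0 higher and 1 lower unadjusted, beside 3031 of 31042). The response in HCR minus that in LCR had a median of 0.29 and was positive in 25, with 0 passing and 10 unadjusted, beside 5673 of 31042. Over all probe sets 51.1% were positive in HCR, 41.6% in LCR and 57.1% for the difference between the responses. The actin index moved the same way as these factors in each line, and with it as a covariate 17 of 27 were positive in HCR at a median of 0.04, 11 of 27 in LCR at -0.02, and the median of the difference between lines was 0.03. Without LCR sedentary 4 the LCR median was -0.14. Without HCR sedentary 4 the count passing in HCR was 1 of 27. In that fit 454 of all 31042 probe sets passed in HCR, against 58 with all arrays.

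The assembly genes of smallest p are named as examples. Cox19, a copper-handling factor, differed by 0.50 (SE 0.12, adjusted p = 0.0785 by limma) in HCR. Its trained values of 9.25 to 9.78 were above its sedentary values of 8.70 to 9.21, as at 4.94% of all probe sets. Its other probe set differed by 0.23. Tmem177, which acts with the factors that mature core subunit 2, differed by 0.68 (SE 0.20, adjusted p = 0.115) and Cmc2 by 0.46 (SE 0.14, adjusted p = 0.135) in HCR. In LCR Cox11, which delivers copper to core subunit 1, differed by -0.20 (SE 0.06, adjusted p = 0.326) at its brightest probe set, and by -0.01 and 0.06 at its other ones. Coa5 differed by -0.28 (SE 0.13, adjusted p = 0.520) and Cox18 by -0.23 (SE 0.12, adjusted p = 0.548) in LCR, and the other probe set of Coa5 by -0.05. Over both lines Coa4 differed by 0.21 (SE 0.08, adjusted p = 0.398) and Cmc2 by 0.27 (SE 0.10, adjusted p = 0.398).

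**Figure D5:**
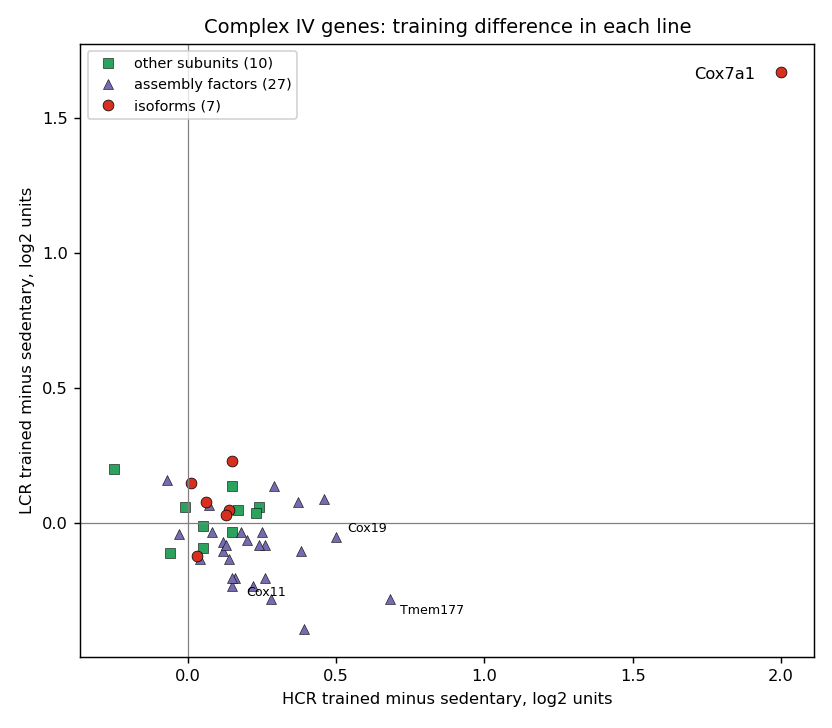
Training difference in HCR (horizontal axis) against that in LCR (vertical axis), both in log2 units, for 7 isoform members (circles), 10 other subunits (squares) and 27 assembly factors (triangles). Cox7a1 lies at 2.00 and 1.67, away from all other points, and most assembly factors lie right of 0 and below 0.

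The genes whose signal followed that of Cox7a1 most closely over the 16 arrays were ranked by Pearson's r among 14235 probe sets with 1 symbol above the dim edge. They were Crybg3 (r = 0.912), Immp1l, a subunit of the inner membrane peptidase of mitochondria (0.890), Stt3b, a catalytic subunit of the glycosylation complex (0.884), Fn3krp, a kinase that repairs glycated proteins (0.866), RGD1359108 (0.850), Card19 (0.848), Smim8 (0.847) and Map4k5, a protein kinase (0.846). The arrays fall into trained and sedentary clusters on Cox7a1, so such values mostly restate that split, and after centring each group on its mean they were 0.35 to 0.72. By Spearman's rho 3 of these 8 were among the 8 most alike. Their own training differences were smaller, 0.24 to 0.67 in HCR and 0.13 to 0.46 in LCR. Among the other members the r with Cox7a1 was 0.65 for Cox4i2, 0.39 for Cox4i1, 0.33 for Cox6a1, 0.32 for Cox8b, 0.27 for Cox8a and -0.15 for Cox6a2, over 16 arrays. For the probe set shared by Cox7a2 and Cox7a2l2, which lists more than 1 symbol and was outside the ranking, it was 0.71, and 0.33 after centring. Its Spearman's rho was 0.89, beside 0.794 to 0.915 for the 8 genes ranked above.

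The Cox7a1 values rest on 1 probe set, at a mean signal of 7.61 that 22.8% of all probe sets exceeded. The accession that the platform annotation gives for it, like those for Cox6a1 and Cox8a, was not among the RefSeq transcripts in the table used, whereas those of Cox6a2, Cox8b, Cox4i1 and Cox4i2 were. Which part or isoform of the Cox7a1 transcript the probes read was therefore not checked here, and the 4-fold difference describes this probe set.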

How the data were processed

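RNA from soleus muscle of 16 rats was hybridised to Affymetrix arrays, 1 rat per array and 4 rats per group. The deposited values are log2 signals per probe set, made by the authors with RMA, and limma is also named, per the submitters' processing notes; versions are not given in the sources used here. No scan date entered any fit. Precision is set by the few arrays in a group.

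Of 31099 probe sets, 57 controls were dropped and 31042 were fitted in limma 3.58.1 (R 4.3.3) with a mean per group, all 16 arrays sharing 1 estimate of spread with 12 residual degrees of freedom. Comparisons were training in each line and in both, line in each training state and in both, and the difference between the training responses. P-values were adjusted by Benjamini-Hochberg over all probe sets, and a result passed at an adjusted p under 0.05. Quoted intervals are 95% intervals. Fold changes are 2 to the power of the log2 difference.

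The platform annotation gave 1 symbol for 20826 probe sets, several for 436 and none for 9780, and genes were named from the first kind alone, the shared Cox7a2 and Cox7a2l2 probe set excepted. Named genes were all members, the 3 complex IV genes of smallest p in each training comparison (brightest probe set of a gene) and the 8 most like Cox7a1. Members and lists were chosen with earlier results of these data known, so counts over them are descriptions. The fit was tested on simulated data. Alternatives were quantile normalization, median centring, array weights, trended robust moderation, a filter on dim probe sets, a replicate block, the actin index as covariate, fits on the compared arrays alone, and omission of single arrays or of HCR sedentary 2 and HCR trained 3.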

Additional observations from a re-analysis of the deposited data

Results flagged for a closer look

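In 4 of 32 sets of 4 rats, 1 rat lay farther from the rest than Dixon's critical value allows, the value being its gap to the nearest rat as a share of the group's range; the method marks some groups by chance, about 5% of them. Cox8b on HCR sedentary 2 was 13.20 against 13.82 to 13.87 in the other rats of its group, a share of 0.919. The same gene on HCR trained 3 was 13.69 against 13.85 to 13.88, a share of 0.863. Cox6a1 on HCR trained 3 was 10.30 against 10.70 to 10.77, a share of 0.862. Cox6a2 on HCR trained 2 was 14.15 against 13.96 to 13.99, a share of 0.841.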

How the results depend on the processing

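Cox7a1 kept a positive training difference under every alternative run, between 1.91 and 2.10 for HCR and between 1.67 and 1.84 for LCR, and between 1.92 and 2.15 (HCR) or 1.44 and 1.83 (LCR) with single arrays left out. The number of members passing for training counts Cox7a1, which was selected on this contrast. It therefore describes how the fits behave and is no test of Cox7a1. In HCR it was 1, and 0 with the actin index as covariate or only the compared arrays. In LCR it was 1, and 0 with quantile normalization, median centring, the replicate block, the actin covariate or only the compared arrays, and 0 to 1 with single arrays left out, staying at 1 without HCR trained 2, HCR trained 3, LCR sedentary 2 or LCR sedentary 4 and falling to 0 without any of the other 12. Over all probe sets the count passing was 58 in HCR (0 to 1304 under the alternatives) and 1 in LCR (0 to 321). It was 2 over both lines (2 to 1148). For line it was 3 in sedentary rats (1 to 10), 116 in trained rats (5 to 3525) and 27 over both (17 to 338), and for the difference between the responses 0 (0 to 233). With single arrays left out these counts ran, in the same order, 1 to 454, 0 to 3, 1 to 72, 1 to 6, 9 to 651, 15 to 69 and 0 to 185. A separate correlation measure, not that of whole signals (0.941 to 0.996 over all pairs of arrays), was read for pairing by number. On it same-numbered rats of different groups lay between -0.48 and 0.57 (median 0.03, 8 of 24 pairs over 0.1). The median for other pairs was 0.02. No pairing by number was assumed, though such values cannot exclude one. With the replicate block the HCR count of members stayed at 1 and the LCR count was 0. The HCR count over all probe sets was 2 with that block. Small differences that did not pass changed sign, and the cause was not tested. With the actin covariate the training difference in HCR was -0.14 for Cox6a2, -0.07 for Cox6a1, -0.14 for Cox8b, -0.04 for Cox8a, -0.07 for Cox4i2 and -0.02 for Cox4i1. It gave line differences of 0.06, 0.06 and 0.03 in sedentary rats for Cox6a2, Cox8b and Cox4i1, and of -0.05, 0.00 and -0.17 in trained rats for Cox6a2, Cox8a and Cox4i2. It gave differences between the responses of -0.11 for Cox6a2, -0.33 for Cox8b and -0.16 for Cox8a. Without HCR sedentary 2 and HCR trained 3, Cox6a2 differed by -0.02 for training in HCR, and the sedentary line differences were 0.01, 0.04 and 0.03 for Cox6a2, Cox8b and Cox4i1. The same omission gave Cox8b line differences of 0.02 in trained rats and 0.03 over both states, 0.01 for Cox4i1 over both, and differences between the responses of 0.00 for Cox6a1 and -0.02 for Cox8b. It gave training shifts in HCR of -0.17 for Cox6a2 minus Cox6a1 and -0.25 for Cox8b minus Cox8a. Array weights gave Cox6a2 -0.01 for training in HCR, sedentary line differences of 0.00, 0.01 and 0.03 for Cox6a2, Cox8b and Cox4i1, and -0.04 for Cox8b between the responses. Quantile normalization gave 0.00 for the Cox6a2 sedentary line difference, 0.02 for Cox4i1 between the responses, 0.00 for Cox6a2 minus Cox6a1 in HCR and -0.03 for Cox8b minus Cox8a in LCR. Median centring gave 0.01 for Cox4i1 between the responses. With single arrays left out, training differences in HCR ran from -0.04 to 0.08 for Cox6a2, -0.05 to 0.12 for Cox6a1 and -0.01 to 0.21 for Cox8b, and from -0.03 to 0.12 in LCR for Cox8a. Sedentary line differences ran from -0.17 to 0.23 for Cox7a1, -0.10 to 0.01 for Cox6a2, -0.19 to 0.04 for Cox8b, -0.02 to 0.14 for Cox8a and -0.06 to 0.03 for Cox4i1. Trained line differences ran from -0.09 to 0.02 for Cox8b and -0.02 to 0.06 for Cox4i2, and those over both states from 0.00 to 0.05 for Cox6a2 and -0.10 to 0.01 for Cox8b. Differences between the responses ran from -0.06 to 0.16 for Cox8b, -0.01 to 0.22 for Cox8a and -0.07 to 0.02 for Cox4i1. Training shifts ran from -0.08 to 0.09 for Cox6a2 minus Cox6a1 in HCR, and for Cox8b minus Cox8a from -0.18 to 0.13 in HCR and -0.07 to 0.10 in LCR. Averaging all probe sets of a gene was not run, because each member had only 1. Signals near the array maximum limit what Cox6a2 and Cox8b can show.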
